A study of Mus musculus with 8 samples.

Results

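Collagens are the triple-helical proteins that give the extracellular matrix its strength, and this account follows the 44 collagen chain genes found among 21291 gene rows of E14.5 mouse kidney RNA. Members were taken by name alone, as every row whose symbol reads Col, a number, the letter a and a number, so no measured value chose them. They comprised 11 fibrillar chains, the 6 chains of collagen IV and 27 other chains. The libraries were made from polyadenylated RNA of kidney pairs, 4 control and 4 mutant. Controls were Six2-GFPcre tg/+, Etv4+/-, Etv5fl/fl and mutants were Six2-GFPcre tg/+, Etv4-/-, Etv5fl/fl. Both groups therefore carried the Cre transgene, which is active in nephron progenitors and passes its effect to their descendants, and both carried 2 floxed alleles of Etv5. The Etv4 alleles were the labelled difference, and nothing in the labels restricts the Etv4 null allele to one cell type. The series asks what ablating Etv4 and Etv5, a pair of ETS transcription factors acting downstream of receptor tyrosine kinases, does to nephron progenitors and the cells derived from them.

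Fibrillar collagens such as types I, III and V assemble into the cross-banded fibrils of interstitial matrix and are made mainly by stromal cells. Collagen IV forms the network of basement membranes, first as a trimer of the chains encoded by Col4a1 and Col4a2, and in mature glomeruli also as a trimer of the products of Col4a3, Col4a4 and Col4a5. Other collagens decorate fibrils, span the cell membrane, form beaded microfibrils or sit in basement membranes as the multiplexins, types XV and XVIII.

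Total estimated counts were between 15515139 and 39548327 per library, and levels are given below as estimated counts divided by a size factor for each library (scaled counts). Control 4 stood apart: it was the shallowest, 18.4% of its counts came from the gene Lars2 against 0.138% to 0.476% elsewhere, and collagens made up 0.461% of its counts against 0.886% to 1.18% elsewhere. Per-library values are given below in the order of replicates 1 to 4 of a group. Etv4 had 2816, 2803, 2816 and 2311 scaled counts in controls and 294, 281, 219 and 164 in mutants, with no overlap. Etv5, floxed in both groups, averaged 3614 ± 490.6 in controls and 2120 ± 510.5 in mutants (SD, n = 4 each; limma, adjusted p = 0.106). The Y-linked Ddx3y had 1553 to 1629 scaled counts in the controls and 0 in each mutant, so genotype and sex cannot be told apart in any comparison below. Nephron progenitor, stromal, endothelial and podocyte markers were present in all 8 libraries. A tubule score, the mean over 14 tubule genes of the log2 scaled count minus the gene's mean, summarised how strongly each library expressed genes of differentiated tubules. It was −2.21, −1.73, −1.57, −0.88 and −0.86 in control 1, mutant 1, control 3, control 2 and mutant 2, and 1.46, 2.53 and 3.26 in mutant 3, control 4 and mutant 4. In whole-kidney RNA, fewer cells of a type and less RNA per cell cannot be told apart.

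The chromosomal arrangement of the collagen IV genes frames the values that follow, because they lie in head-to-head pairs. Col4a1 and Col4a2 on chromosome 8 overlap at their 5′ ends, Col4a4 and Col4a3 on chromosome 1 are 71 bases apart, and Col4a6 and Col4a5 on the X chromosome are 1308 bases apart (GENCODE M21, GRCm38). The overlap of Col4a1 with Col4a2, the bases between Col4a4 and Col4a3 and those just before Col4a5 are shown. They hold or adjoin the starts of genes for chains that build one network. The sequences are RefSeq's on GRCm38.p6, plus strand, with any match to the GC box core GGGCGG, in either orientation, in capitals.
Col4a1 and Col4a2 overlap, chr8:11312805-11312826: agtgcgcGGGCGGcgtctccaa
Between Col4a4 and Col4a3, chr1:82586850-82586920: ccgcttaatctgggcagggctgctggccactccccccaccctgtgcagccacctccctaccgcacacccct
Before Col4a5, chrX:141475235-141475384: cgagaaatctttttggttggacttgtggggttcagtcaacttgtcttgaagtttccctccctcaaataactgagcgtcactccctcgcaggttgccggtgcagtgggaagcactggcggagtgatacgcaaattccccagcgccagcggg

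The overlap of Col4a1 with Col4a2 spans 22 bases, of which 72.7% are G or C, and holds a GC box core. The 71 bases between Col4a4 and Col4a3 are 69% G or C and hold no such match. Promoter windows of 250 bases before to 50 after the start were found for 35 of the 44 collagen genes, as 38 windows. The GC box core GGGCGG occurred in 23 of these 38 windows and in 35.7% of all 32851 windows in the table. TATAAA occurred in 5 of the 38 (13.6% of all windows) and CCAAT in 13 (37.4% of all). The ETS-type sequence CCGGAAGT occurred in 0 of the 38 collagen windows and in 3.89% of all. All searches covered both strands, and the windows of Col4a1 and Col4a2 overlap each other. Such matches describe these letters in these windows and are not evidence of binding.

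No collagen chain passed the threshold between genotypes. Log2 fold changes were positive for 10 of 11 fibrillar chains (median 0.29), 3 of 6 collagen IV chains (median −0.054) and 15 of 24 other chains (median 0.14), with 51.7% positive over all genes. Without control 4 these counts were 6 of 11 fibrillar (median 0.013), 3 of 6 collagen IV (median −0.048) and 12 of 24 other chains (median 0.035). Of the 44 chains, 41 reached 10 scaled counts in 4 or more libraries and were tested. With limma, 0 of these 41 had an adjusted p below 0.05, against 45 of all 14974 genes tested (0.301%). Limma voom also gave 0 at the adjusted threshold. At an unadjusted p below 0.05 it gave 13 collagens, with no share over all genes to set beside them. At an unadjusted p below 0.05 by limma there were 12 collagens. The 9 with higher values in mutants were 22.0% of the collagens tested, where the share over all genes was 6.33%. The 3 with lower values were 7.32%, where the share over all genes was 5.72%. Mutant and control libraries did not overlap for 7 collagens that were higher in mutants (17.1%, against 4.17% of all genes) and for 1 that was lower (2.44%, against 4.43% of all genes).

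**Figure D1:**
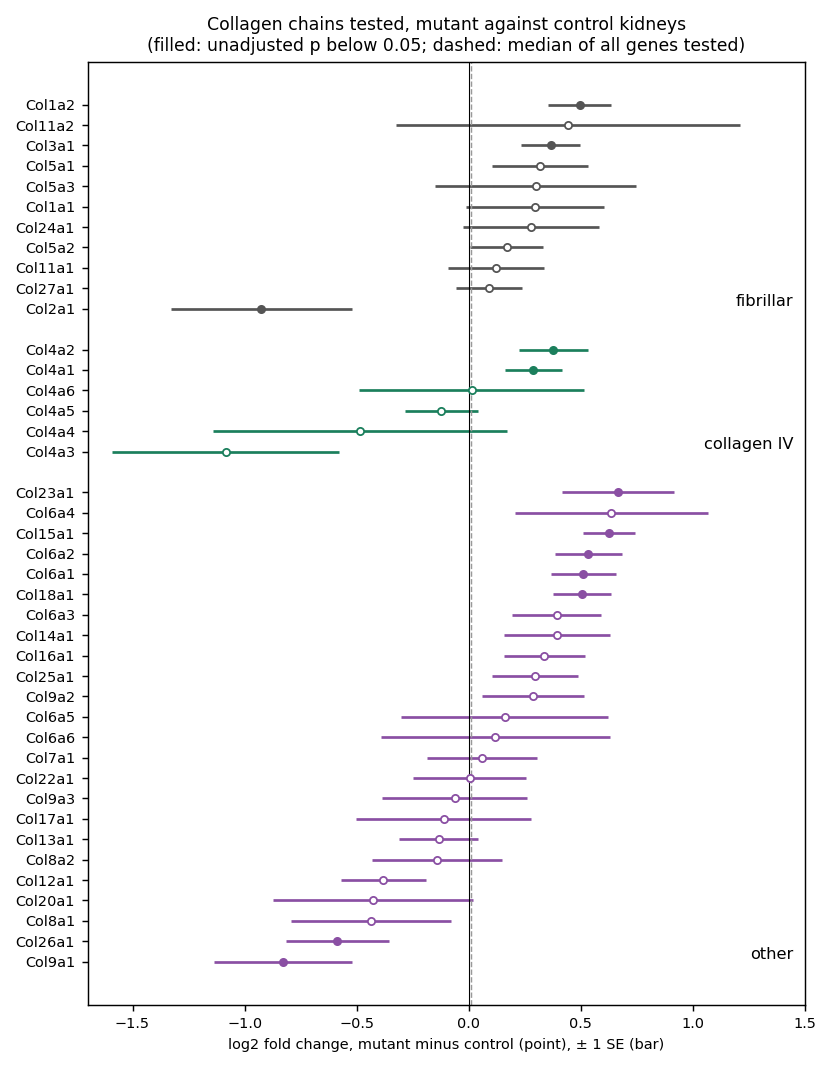
Log2 fold change of each of the 41 collagen chains tested (horizontal axis, mutant minus control, with a bar of 1 SE on each side), grouped as fibrillar, collagen IV and other. Of the 41 points 28 lie above 0, none passed the adjusted threshold, and the 12 filled points had an unadjusted p below 0.05.

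Many of these values depended on control 4. Its log2 level was below the mean of the other 3 controls for 32 of 41 collagens, by a median of −0.46, where the median over all genes was 0.0043. The median collagen fold change was 0.17 on the log2 scale over all 8 libraries (28 positive and 13 negative), against a median of 0.0087 over all genes. Without control 4 it was 0.013, with 21 positive and 20 negative. Among controls 1 and 2 and mutants 1 and 2, whose library names share a number of unstated meaning, it was −0.080, with 17 of 41 positive. Between control 4 and mutant 4, whose names share another number, it was 0.80, with 33 of 41 positive. With weights that give discordant libraries less influence it was −0.055. Without control 4, the counts at an unadjusted p below 0.05 were 8 higher (19.5%, against 9.48% of all genes) and 4 lower (9.76%, against 8.91% of all genes). Groups then did not overlap for 8 collagens that were higher (19.5%, against 8.61%) and 3 that were lower (7.32%, against 8.79%). The 8 higher ones were the same by both rules: Col15a1, Col18a1, Col1a2, Col23a1, Col3a1, Col4a2, Col6a1 and Col6a2. The 4 lower ones at an unadjusted p below 0.05 were Col12a1, Col26a1, Col2a1 and Col9a1. The 3 lower ones without overlap were Col26a1, Col2a1 and Col4a3.

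Type I collagen, the heterotrimer of the products of Col1a1 and Col1a2, was the most abundant by transcript length. Col1a1 averaged 13164 scaled counts per kb of its longest transcript and Col1a2 7261. Next came Col3a1 with 6359, Col4a1 with 5989 and Col4a2 with 4629 scaled counts per kb, then Col18a1 with 3428 and Col26a1 with 3071. Fibrillar chains together took 52.8% to 62.2% of all collagen scaled counts in the 8 libraries, and collagen IV took 19.5% to 25.6%. At the other end, Col10a1, Col19a1 and Col28a1 stayed at or below 6 estimated counts in every library and were not tested.

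Col1a1 (ENSMUSG00000001506, chromosome 11, 94936224 to 94953042, plus strand) had 110276, 61028, 89812 and 33734 scaled counts in controls. In mutants 1 to 4 it had 82900, 84311, 82856 and 79568. The mutants thus lay close together, between the extremes of a control group with an SD of 33443 against 2011 in mutants, and the genotype difference of 0.29 log2 units (SE 0.31, adjusted p = 0.749 by limma) did not pass. It was −0.037 without control 4. The summed level of 10 stromal markers, none a collagen, followed the same order in controls, at 40855, 30154, 35254 and 24452 scaled counts in controls, and was 31465 to 31969 in mutants. All 10 stromal markers were detected in every library, and their part in the Col1a1 values was not tested.

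Col1a2 (chromosome 6, 4504814 to 4541544, plus strand) had 34229, 33935, 32851 and 27244 scaled counts in controls and 37238, 40484, 49035 and 55645 in mutants. Every mutant lay above every control, with mutants 3 and 4 highest, and the log2 fold change was 0.50 (SE 0.14, adjusted p = 0.188 by limma). Col3a1, the homotrimeric type III chain that shares fibrils with type I (chromosome 1, 45311538 to 45349706), had 33343, 30663, 29644 and 29212 scaled counts in controls. Its values were 33490, 33987, 46802 and 45891 in mutants, so the groups were separated by a narrow margin between control 1 and mutant 1 (log2 fold change 0.37, SE 0.13, adjusted p = 0.297 by limma).

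Among the remaining fibrillar chains, 7 of 8 had positive fold changes, 4 of 8 without control 4, and none passed. Col5a1 and Col5a2, the chains of type V collagen that help set fibril diameter, had log2 fold changes of 0.32 (SE 0.21) and 0.17 (SE 0.16), with overlapping groups. Without control 4 they were 0.077 and 0.018. Col11a1 (0.12), Col24a1 (0.28), Col27a1 (0.091), Col5a3 (0.30) and Col11a2 (0.44) had SEs larger than the value itself, and without control 4 Col11a1 (−0.10), Col24a1 (−0.038) and Col11a2 (−0.19) were negative. Col11a2 was the fibrillar chain with the widest spread, from 2.77 to 35.4 scaled counts, and rested on 1 to 38 estimated counts per library.

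Col2a1, the type II chain best known from cartilage, was the one fibrillar chain with a negative fold change. It was singled out after its values were seen. Col2a1 (chromosome 15, 97975602 to 98004695, minus strand) had 6299, 5638, 6286 and 2469 scaled counts in controls and 4385, 3725, 1750 and 1478 in mutants. Control 4 lay among the mutants and the other 3 controls lay above all of them. The log2 fold change was −0.93 (SE 0.40, adjusted p = 0.398 by limma), and −1.25 (SE 0.34, adjusted p = 0.111 by limma) without control 4. With the tubule score as a covariate it was −0.58 (SE 0.096) and passed (limma adjusted p = 0.0155), with adjusted p from 0.0155 to 0.705 over 24 other fits. That fit called 3 of 41 collagens (7.32%) and 2.55% of all genes.

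Most cartilage markers were low and one was not. Of 8 cartilage markers in the table, Hapln1 made up most of the summed level of 596 to 878 scaled counts, which was highest in mutant 3, where Col2a1 stood at 1750. Hapln1 had 506 to 687 scaled counts in controls and 726 to 797 in mutants, higher in mutants, unlike Col2a1. Comp was also higher in mutants, at 6.15 to 7.34 scaled counts against at most 0.921 in controls. Acan, the major cartilage proteoglycan, was at or below 34.3 throughout and highest in mutant 1. Cnmd reached 70.3 scaled counts, in control 2, and Matn3, Epyc and Chad stayed at or below 15.8. Matn1, a cartilage matrix protein, had 9.21, 18.2 and 19.6 scaled counts in controls 1 to 3 and 0 in the other 5 libraries, the same 3 libraries in which Col2a1 was highest. The summed level of 8 nephron progenitor markers was 35881, 23242, 30584 and 19188 scaled counts in controls and 12960, 12345, 7398 and 5677 in mutants. Of these 8 markers 2 passed the limma threshold. The part of either marker list in the Col2a1 values was not tested.

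**Figure D2:**
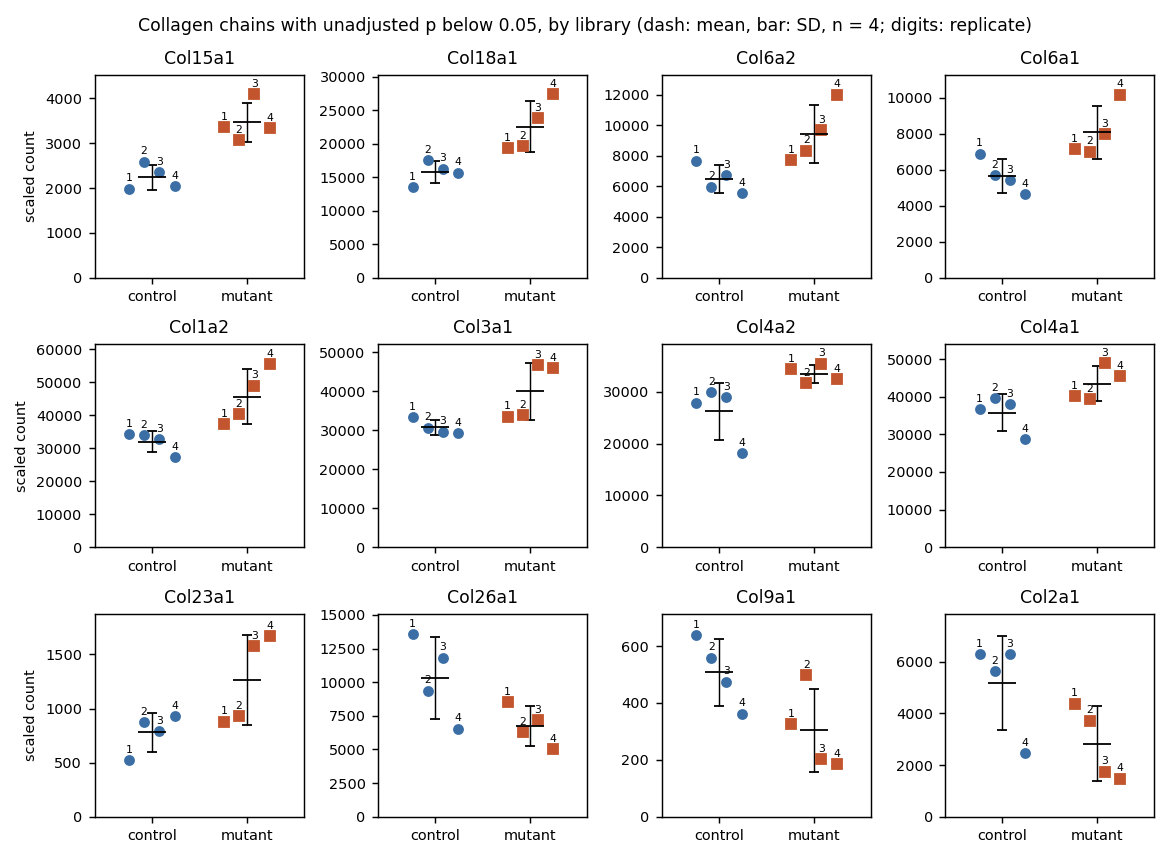
Scaled counts of the 12 collagen chains with an unadjusted p below 0.05 (vertical axes from 0), with 1 point per library marked by its replicate number, the group mean as a dash and the SD as a bar (n = 4 each). Control 4 is the lowest control for 9 of the 12 chains, and for Col2a1 it lies among the mutants, at 2469.

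Collagen IV, the basement membrane network, was almost wholly the pair encoded by Col4a1 and Col4a2. By count per transcript length, Col4a1 made up 52.7% to 59.3% of collagen IV in the 8 libraries and Col4a2 38.4% to 46.3%. Col4a5 made up 1.02% to 2.08%, while Col4a3, Col4a4 and Col4a6 each stayed at or below 0.11%.

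Col4a1 (ENSMUSG00000031502, chromosome 8, 11198423 to 11312826, minus strand) had 36614, 39710, 37975 and 28633 scaled counts in controls. Its values were 40116, 39350, 48975 and 45542 in mutants, so that control 2 overlapped mutant 2. The log2 fold change was 0.29 (SE 0.13, adjusted p = 0.402 by limma), and 0.19 (SE 0.092, adjusted p = 0.316 by limma) without control 4. Col4a2 (ENSMUSG00000031503, chromosome 8, 11312805 to 11449287, plus strand) had 27879, 29979, 29034 and 18100 scaled counts in controls and 34347, 31609, 35426 and 32494 in mutants. Every mutant lay above every control for Col4a2, with a log2 difference of 0.38 (SE 0.15, adjusted p = 0.362 by limma), which was 0.21 (SE 0.070, adjusted p = 0.170 by limma) without control 4. The ratio of Col4a1 to Col4a2 counts was 1.31 to 1.32 in controls 1 to 3 and 1.58 in control 4.

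Of the chains of the mature glomerular network, Col4a3 and Col4a4 were scarce. Col4a3 (chromosome 1, 82586921 to 82722059, plus strand) had 18.4, 11.8, 16.8 and 36.7 scaled counts in controls and 6.52, 7.35, 11.3 and 9.67 in mutants. Every mutant was below every control, but the values rest on 8 to 20 estimated counts per library, and the log2 difference of −1.08 (SE 0.51, adjusted p = 0.437 by limma) did not pass. Col4a4, its head-to-head neighbour, had 67.2, 14.2, 115.5 and 63.7 scaled counts in controls and 17.1, 36.7, 34.0 and 84.4 in mutants. The groups overlapped (log2 fold change −0.48, SE 0.66, adjusted p = 0.818 by limma), and the ratio of Col4a4 to Col4a3 counts ran up to 8.73, in mutant 4. The summed level of 10 podocyte markers, from the cells that make this network, was 8385 to 10356 scaled counts in controls and 10281 to 19421 in mutants.

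Col4a5 and Col4a6 are X-linked, and controls and mutants differed in sex by Ddx3y. Col4a5 (chromosome X, 141475385 to 141689234, plus strand) had 1044, 1137, 940.2 and 993.6 scaled counts in controls and 770.8, 797.4, 984.0 and 1308 in mutants. Mutants 1 and 2 were the lowest libraries and mutant 4 the highest, so the groups overlapped (log2 fold change −0.12, SE 0.16, adjusted p = 0.814 by limma). Col4a6 stayed between 5.92 and 17.0 scaled counts in all 8 libraries, with a log2 fold change of 0.013 (SE 0.50). Set against Col4a1 and Col4a2 together, the 3 chains Col4a3, Col4a4 and Col4a5 amounted, per length of the longest transcript, to 1.71%, 1.66%, 1.54% and 2.28% in controls. In mutants 1 to 4 the figure was 1.06%, 1.17%, 1.204% and 1.76%. Within each group it was highest in library 4, and the groups overlapped. The choice of length moved this share: its mean over the 8 libraries was 1.55%, and 0.865% per mean transcript length.

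The multiplexins, collagens of vascular and epithelial basement membranes that release antiangiogenic fragments, had the smallest p-values among all collagens. Col15a1 (ENSMUSG00000028339, chromosome 4, 47208161 to 47313167, plus strand) had 1989, 2590, 2350 and 2040 scaled counts in controls and 3363, 3062, 4089 and 3341 in mutants. The groups did not overlap, and the log2 difference of 0.63 (SE 0.12, adjusted p = 0.0727 by limma) missed the threshold. It was 0.58 (SE 0.12, adjusted p = 0.0512 by limma) without control 4, 0.71 between control 4 and mutant 4 and 0.50 in the first 2 libraries of each group. With the tubule score as a covariate Col15a1 passed (0.62, SE 0.11, adjusted p = 0.0227 by limma), with adjusted p from 0.0120 to 0.625 over 24 other fits.

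Col18a1, whose C-terminal fragment is endostatin (chromosome 10, 77052178 to 77166548, minus strand), had 13550, 17608, 16302 and 15703 scaled counts in controls. It had 19306, 19707, 23837 and 27411 in mutants, again with every mutant above every control. Its log2 fold change was 0.51 (SE 0.13, adjusted p = 0.151 by limma), the same to 2 decimals without control 4, and it passed with the tubule score as a covariate (0.44, SE 0.097, adjusted p = 0.0451 by limma; range over 24 other fits 0.0444 to 0.626). The summed level of 8 endothelial markers was 17238, 23103, 21003 and 21695 scaled counts in controls and 25935, 25596, 28968 and 26501 in mutants. These endothelial sums also did not overlap, 8 of 8 markers had positive fold changes and 0 passed the limma threshold. Macrophage marker sums were likewise apart, at 2391 to 3517 scaled counts in controls and 3783 to 4388 in mutants (8 of 8 positive, 0 passed). The part of either in the Col15a1 and Col18a1 values was not tested.

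**Figure D3:**
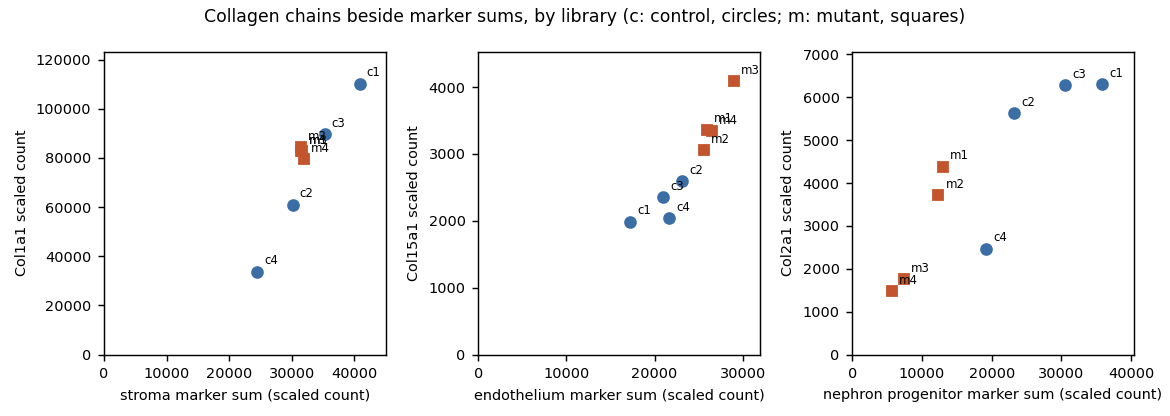
Scaled counts of Col1a1, Col15a1 and Col2a1 (vertical axes) against the summed scaled counts of stromal, endothelial and nephron progenitor markers in the same library (horizontal axes), with circles for the 4 controls and squares for the 4 mutants. Col1a1 and the stromal sum are both highest in control 1 and lowest in control 4, and the mutants lie above the controls on both axes of the Col15a1 panel.

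Col26a1, a secreted collagen with an EMI domain (ENSMUSG00000004415, chromosome 5, 136741759 to 136883209, minus strand), had lower values in mutants. It had 13549, 9367, 11829 and 6553 scaled counts in controls and 8541, 6281, 7190 and 5020 in mutants. Control 4 lay among the mutants, and the other 3 controls lay above all of them. The log2 fold change was −0.59 (SE 0.23, adjusted p = 0.339 by limma), and −0.79 (SE 0.18, adjusted p = 0.0742 by limma) without control 4. With array weights Col26a1 passed (−0.72, limma adjusted p = 0.0214), with adjusted p from 0.0214 to 0.853 over 24 other fits. Its estimated counts were whole numbers in 0 of 8 libraries, as happens when reads are divided between genes, so its level is uncertain. The same caution holds for Col6a6, with whole numbers in 2 of 8 libraries. It also holds for Col4a6, Col5a1, Col6a5 and Col27a1, with whole numbers in 3 of 8 each. Col7a1, the anchoring fibril chain, lay between 80.3 and 145.3 scaled counts with overlapping groups (log2 fold change 0.060, SE 0.25).

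Type VI collagen forms beaded microfibrils close to cells from the products of Col6a1, Col6a2 and a further chain. Col6a1 (chromosome 10, 76708792 to 76726168, minus strand) had 6889, 5681, 5405 and 4641 scaled counts in controls and 7153, 6995, 7985 and 10164 in mutants. Col6a2, which lies 85161 bases from it on the same strand, had 7670, 5979, 6741 and 5527 in controls and 7704, 8337, 9702 and 12010 in mutants. For both genes the mutants lay above the controls, by a small margin over control 1. The log2 fold changes were 0.51 (SE 0.15, adjusted p = 0.190 by limma) for Col6a1 and 0.53 (SE 0.15, adjusted p = 0.182 by limma) for Col6a2. The ratio of Col6a2 to Col6a1 counts kept within 1.05 to 1.25 in all 8 libraries.

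Col6a3, the usual further chain, had 5260, 4022, 4686 and 2588 scaled counts in controls and 4651 to 6042 in mutants, with overlap (log2 fold change 0.39, SE 0.20, adjusted p = 0.473 by limma). Without control 4 it was 0.18. The alternatives to it encoded by Col6a4, Col6a5 and Col6a6 lie next to one another on chromosome 9 and were all at their lowest in control 4. Col6a6 had the widest spread of this class, from 290.6 in control 4 to 2124 in control 1, and its log2 fold change of 0.12 (SE 0.51) was −0.44 without control 4. The network-forming chains Col8a1 and Col8a2, known from vessels and the cornea, had log2 fold changes of −0.44 (SE 0.36) and −0.14 (SE 0.29). Without control 4 these were −0.68 (SE 0.33) and −0.33 (SE 0.27).

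FACIT collagens attach to fibril surfaces, and 4 of the 8 tested had positive fold changes. Col9a1, a type IX chain, had 637.4, 559.2, 475.2 and 362.6 scaled counts in controls and 327.1, 497.9, 203.8 and 184.6 in mutants. Mutant 2 lay within the control range and the other mutants below it (log2 fold change −0.83, SE 0.31, adjusted p = 0.319 by limma). Without control 4 the log2 fold change of Col9a1 was −0.98 (SE 0.31, adjusted p = 0.153 by limma). The log2 fold changes of its partner chains Col9a2 and Col9a3 were 0.29 (SE 0.23) and −0.062 (SE 0.32). Col9a3 shares exon sequence with Tcfl5 on the opposite strand, which can make its level uncertain. Estimated counts of Col9a3 were whole numbers in 7 of 8 libraries. Col12a1 had 1711, 1122, 1603 and 965.9 scaled counts in controls and 927.4, 901.0, 1235 and 1001 in mutants, with controls 2 and 4 within the mutant range and controls 1 and 3 above it (log2 fold change −0.38, SE 0.19, adjusted p = 0.466 by limma). Without control 4 the log2 fold change of Col12a1 was −0.53 (SE 0.16, adjusted p = 0.14 by limma). With array weights Col12a1 passed (−0.60, limma adjusted p = 0.0417), with adjusted p from 0.0417 to 0.886 over 24 other fits.

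Col14a1 had 1829 to 2275 scaled counts in controls and 1856, 1978, 3196 and 4197 in mutants, so mutants 3 and 4 were above every control and mutants 1 and 2 among them (log2 fold change 0.39, SE 0.24). Col16a1 showed the same arrangement, at 2754 and 3262 in mutants 3 and 4 and 1522 to 2294 in the other 6 libraries (log2 fold change 0.34, SE 0.18). Col20a1 and Col22a1 were low, between 14.1 and 131.5 scaled counts.

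Of the 4 transmembrane collagens, Col23a1 had the largest positive fold change among the 41 collagens tested. Col23a1 (chromosome 11, 51289920 to 51583918, plus strand) had 526.9, 876.7, 788.3 and 932.7 scaled counts in controls and 879.2, 933.7, 1578 and 1668 in mutants. Control 4 lay between mutants 1 and 2, and the log2 fold change was 0.67 (SE 0.25, adjusted p = 0.324 by limma). Col25a1 (0.29, SE 0.19), Col13a1 (−0.13, SE 0.18) and Col17a1 (−0.11, SE 0.39) had overlapping groups, and Col17a1 was low, with at most 29.6 scaled counts.

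Several collagens differed between libraries along the tubule score. The 8 libraries fell into 5 with scores below 0 and 3 above 1, so no correlation is given, and slopes are from limma with genotype and score together, as a description. Of 41 collagens 21 had a positive and 20 a negative slope (51.2% positive, against 49.8% of all genes), and 7 of 11 fibrillar chains were negative. Without control 4, 28 were positive and 13 negative, with 50.1% positive over all genes. The steepest negative slope was that of Col2a1, at −0.32 log2 units per unit of score (SE 0.024). Col6a4 (−0.27, SE 0.074), Col6a6 (−0.25, SE 0.10), Col9a1 (−0.20, SE 0.050), Col1a1 (−0.17, SE 0.057) and Col26a1 (−0.16, SE 0.031) were also negative. Without control 4 the slope was −0.33 (SE 0.031) for Col2a1, −0.24 (SE 0.064) for Col9a1 and −0.13 (SE 0.037) for Col26a1. That of Col6a4 was then −0.14 (SE 0.075), that of Col1a1 −0.047 (SE 0.047) and that of Col6a6 −0.030 (SE 0.089), so the last 3 rested largely on control 4. Positive slopes included those of Col9a3 (0.20, SE 0.056), Col23a1 (0.17, SE 0.037) and Col14a1 (0.16, SE 0.033), which were 0.25, 0.23 and 0.24 without control 4. In the 5 libraries with scores below 0, Col14a1 varied little, from 1829 to 2096 scaled counts, and the other 3 libraries were at 2275 to 4197. Col4a1, Col4a2, Col6a1 and Col6a2 had slopes between −0.070 and 0.027 over all 8 libraries. Without control 4 these were 0.054 (SE 0.019) for Col4a1 and 0.0037 (SE 0.018) for Col4a2. They were then 0.086 (SE 0.031) for Col6a1 and 0.10 (SE 0.031) for Col6a2. Those of Col18a1, Col1a2 and Col3a1 were 0.12 (SE 0.019), 0.11 (SE 0.017) and 0.097 (SE 0.025) without control 4. That of Col15a1 was 0.042 (SE 0.033).

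**Figure D4:**
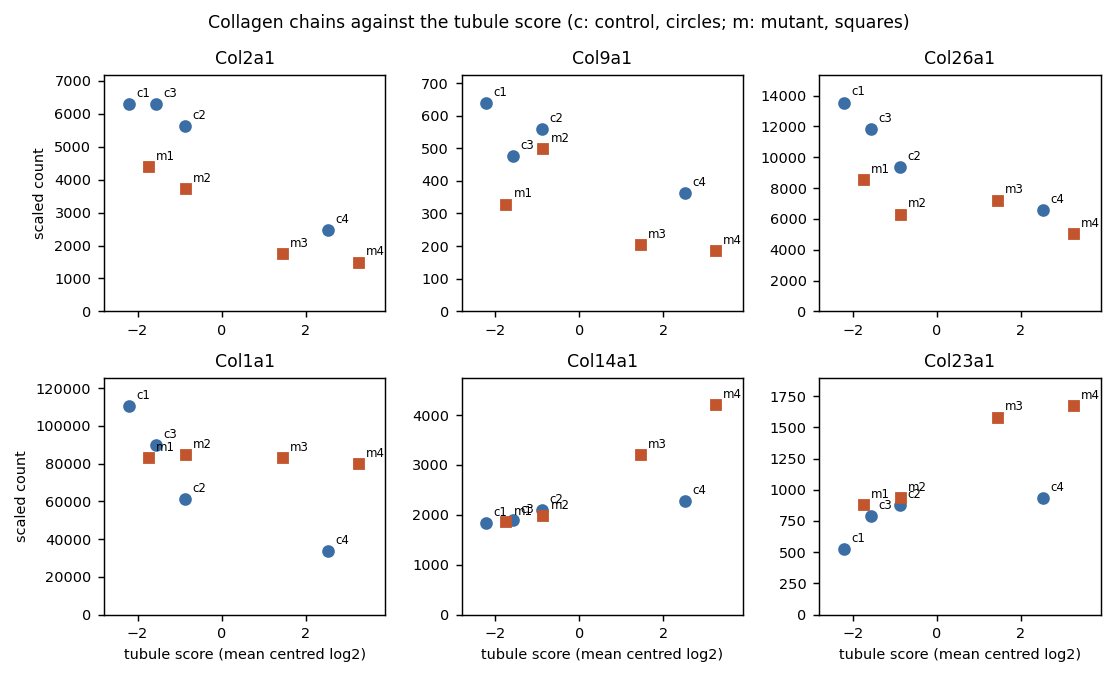
Scaled counts of 6 collagen chains (vertical axes from 0) against the tubule score of each library (horizontal axis, mean centred log2), with circles for controls and squares for mutants. Col2a1 is at 3725 or above in the 5 libraries with scores below 0 and at 2469 or below in the other 3, while Col14a1 and Col23a1 are highest in mutant 4.

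Ratios between chains varied more over the 8 libraries for some pairs than for others. The ratio of Col1a1 to Col1a2 counts was 3.22, 2.23, 2.73, 1.80, 2.08, 1.69, 1.24 and 1.43 when libraries were taken in order of rising tubule score, a range of 2.60-fold. Within each genotype the ratio was lower in each library than in the one before it in that order, and the means were 2.25 ± 0.90 in controls and 1.86 ± 0.36 in mutants (SD, n = 4 each). The ratio of Col3a1 to Col5a2, a tail-to-tail pair 24614 bases apart, was 5.69, 6.93, 5.90, 7.59, 6.89, 8.45, 9.04 and 9.87 in the same order of libraries, lowest in control 1 and highest in mutant 4. By contrast the highest ratio was 1.35 times the lowest for Col4a1 to Col4a2 and 1.19 times for Col6a2 to Col6a1.

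**Figure D5:**
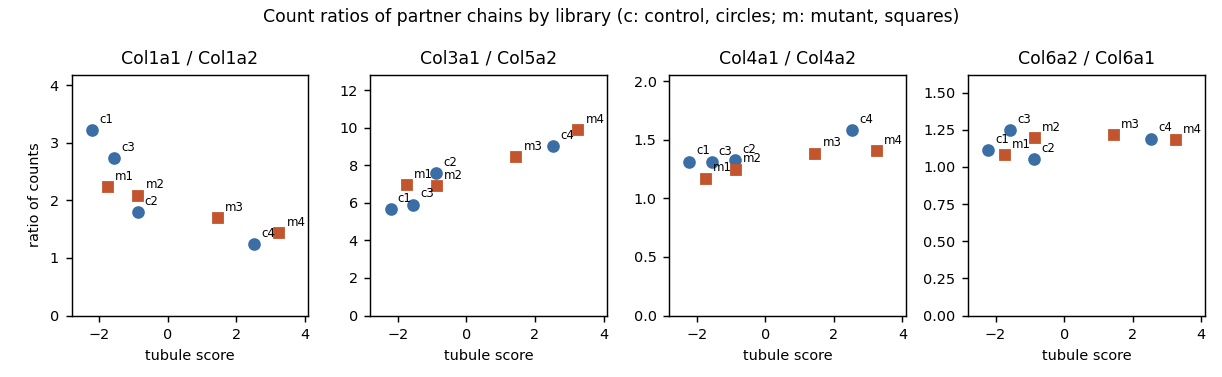
Ratio of counts between 4 pairs of collagen chains (vertical axes from 0) against the tubule score of each library, with circles for the 4 controls and squares for the 4 mutants. Col1a1 to Col1a2 runs from 3.22 in control 1 to 1.24 in control 4, while Col6a2 to Col6a1 stays within 1.05 to 1.25.

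The authors' deposited table lists 644 genes, each with an adjusted p below 0.05 by the authors, where the series has 21291 gene rows. Of the 44 collagens it lists 6. In the authors' deposited table the log2 fold changes were 0.59 for Col15a1, 0.51 for Col18a1 and 0.79 for Col23a1, and −0.77 for Col26a1, −0.54 for Col12a1 and −0.87 for Col9a1. All 6 had the same sign in the limma fit, where none passed. How the authors' table was restricted to its genes is not stated.

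Genes that make, cross-link, anchor or degrade collagen likewise gave no call in the limma fit. Of 73 such genes 72 were tested, 0 had a limma adjusted p below 0.05 (0.301% of all genes did), 9 had higher values in mutants at an unadjusted p below 0.05 (12.5%, against 6.33% of all genes) and 0 lower (5.72% of all genes). Limma voom also gave 0. Their median log2 fold change was 0.17, with 52 positive and 20 negative (72.2% positive, against 51.7% of all genes). The authors' deposited table lists 3 of these 73 genes with an adjusted p below 0.05, and 644 genes in all, where the series has 21291 gene rows. The 3 are Tinag (3.77), a tubular basement membrane protein, Lama2 (0.66) and P3h2 (0.72), each a log2 fold change.

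Partners of collagen IV in basement membranes had 15 of 16 positive fold changes (51.7% of all genes were positive), a median of 0.41 and 6 higher at an unadjusted p below 0.05 (37.5%, against 6.33% of all genes). Lamb1, the laminin beta 1 chain, had 13254, 13734, 14816 and 11394 scaled counts in controls and 20228, 18041, 18126 and 18009 in mutants. The groups did not overlap, and the log2 difference of 0.49 (SE 0.095, adjusted p = 0.0788 by limma) missed the threshold. Lama2, the laminin alpha 2 chain, had 704.5 to 830.3 scaled counts in controls and 859.7 to 1421 in mutants, without overlap (log2 fold change 0.57, SE 0.15, adjusted p = 0.161 by limma).

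Enzymes and chaperones of chain modification were centred near 0, with 11 of 18 positive and a median of 0.032. The 2 genes with the smallest p in each remaining list are given here. For chain modification these were P3h2, a prolyl 3-hydroxylase (0.56, SE 0.23, adjusted p = 0.371 by limma), and Fkbp14, a prolyl isomerase (0.27, SE 0.13). Export and propeptide removal had 7 of 10 positive, and these were Creb3l1, a transcription factor of secretory capacity (0.27, SE 0.11), and Tll1, a procollagen C-proteinase (0.76, SE 0.35). Cross-linking enzymes and fibril partners had 9 of 12 positive, and these were Loxl3, a lysyl oxidase (0.27, SE 0.12), and Fmod, the fibril-binding proteoglycan fibromodulin (0.63, SE 0.36). Collagen receptors had 6 of 9 positive, and these were Ddr1, a receptor tyrosine kinase for collagen (0.26, SE 0.11), and Lair1, an inhibitory receptor of leukocytes with at most 35.7 scaled counts (1.26, SE 0.69). Proteases and their inhibitors had 4 of 7 positive, and these were the metalloproteinase inhibitors Timp3 (0.55, SE 0.25) and Timp1 (0.21, SE 0.14).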

How the data were processed

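Per the labels' protocols, kidney pairs were snap frozen and polyA-enriched libraries were read from both ends. The submitters' processing notes name fastp 0.23.2, kallisto 0.46.0, DESeq2 1.40.2 and mm10 without their roles. The log2 values deposited by the authors proved to be log2(estimated count + 1) with no correction for depth, since turning them back gave whole numbers within 0.001 for 76% of values. The design allowed for this: recovered counts were scaled by median-of-ratios size factors (0.361 in control 4 and 1.07 to 1.27 elsewhere). The authors' deposited table of comparisons lists p-values, a test score, log2 fold changes with errors, and a mean signal across libraries.

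Genes reaching 10 scaled counts in 4 or more libraries (14974) were fitted on log2(scaled count + 1) with limma 3.58.1 in R 4.3.3, using eBayes with a trend, genotype as the one term, two-sided tests and Benjamini-Hochberg adjustment over all of them. That scale understates fold changes of low genes. Kidney pairs are separate samples by label, and littermates may share a dam. Counts simulated from these 8 libraries (15032 genes fitted) gave back 71% of genes altered by 1 log2 unit and 95% of those altered by 2. Scarce genes were not altered, and no change below 1 log2 unit, the range of most collagens here, was simulated. Each gene was drawn independently, so differences shared by many genes of a library, such as those of control 4, were absent. Depth, lowest in control 4, limits the scarce chains most.

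Members and lists were chosen with earlier results of these data known. Values per library were due, by rule, for collagen IV chains, for any collagen past the threshold, and in every other class for the 2 smallest p, the 2 highest per length and the 1 widest spread. In each companion list they were due for genes past the threshold, or else the 2 smallest p. Col2a1, Col6a3, Col5a1, Col5a2 and other chains with values were picked after those values were seen. Positions and lengths come from GENCODE M21 (GRCm38, which is mm10). The 24 alternatives covered scaling, filters, pseudocount, spread model, weights, blocks, a covariate and omitted libraries. Plots used matplotlib 3.10.9 in Python 3.11.15.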

Additional observations from a re-analysis of the deposited data

Results flagged for a closer look

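Over 96 groups of 4 libraries (the 41 collagens tested and the chain ratios, in each genotype), 2 held a library set far apart from its group by Dixon's test, which chance alone brings about in roughly 5% of groups. The ratio of Col4a1 to Col4a2 counts was 1.58 in control 4, and the nearest control had 1.32. The ratio of Col5a1 to Col5a2 counts was 3.52 in mutant 4, and the nearest mutant had 2.88. Both ratios are free of the library scaling, and their cause was not tested.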

How the results depend on the processing

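The count of collagens past the adjusted threshold was 0 in 21 of the 24 alternatives, including each with a library left out. It was 4 with array weights (Col12a1, Col15a1, Col18a1 and Col26a1), 2 with a replicate block (Col15a1 and Col26a1) and 3 with the tubule score covariate. Of 41 collagens, 18 kept the sign of their fold change in every fit that tested them and 23 changed it at least once. The count over all genes, 45, was 11 with total-count scaling, 28 without the eBayes trend, 748 with array weights, 69 with voom, 133 with the replicate block, 382 with the tubule score covariate, 186 without control 4 and mutant 4 together, 16 among controls 1 and 2 and mutants 1 and 2, and 80 without depth correction. Leaving out 1 library gave 2 (without control 3) to 167 (without control 4) genes. Companion genes past the threshold, 0 at first, numbered 3 with array weights (Lama2, Lama4 and Lamb1), 2 with the replicate block (Lama4 and Lamb1), 3 with the tubule score covariate, 2 without control 4 and mutant 4, 1 without depth correction (Tinag), and 0 to 1 with a library left out (Lamb1 without control 4). The cause was not tested. Replicate numbers were not taken to pair the samples: deviations of control and mutant with the same replicate number correlated at r = 0.27, 0.098, −0.13 and 0.35, and controls 1, 2 and 4 but not control 3 correlated best with their own replicate number. Control and mutant libraries whose names share a number correlated at r = 0.068 to 0.35, and with that number as a block 0 of 40 collagens and 33 genes passed. The mean share of Col4a3, Col4a4 and Col4a5 together relative to Col4a1 and Col4a2, 1.55%, was 0.865% per mean transcript length. Total-count scaling moved the median collagen fold change to 0.30 and that of all genes to 0.14, and no depth correction to 0.64 and 0.48. The last alternative and total-count scaling without Lars2 were chosen after seeing the data, as were the slopes and group counts without control 4.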

Other observations

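Some marker sums belong to no collagen comparison. The summed level of 7 smooth muscle markers was 12754 to 16323 scaled counts in controls and 9768 to 11382 in mutants, without overlap, but that direction came from Des alone. Des, which encodes the intermediate filament desmin, had 11119, 7844, 9720 and 7138 scaled counts in controls and 4985, 4837, 3520 and 2787 in mutants. The other 6 summed to 4909 to 6008 in controls and 5446 to 7862 in mutants, with overlap. The sum of 7 skeletal muscle markers was 3190 in mutant 2 and 117 to 330 in the other 7 libraries.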
